A study of Mus musculus with 6 samples.

Results

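Olig1, Olig2, Sox10, Nkx2-2, Sox8, Myrf and Zfp488 are transcription factors of the oligodendrocyte lineage. These 7 genes were taken by symbol from the 54446 genes listed in the data. They were chosen by their summed UMIs and their shares of cells with a UMI in these same libraries, so levels and shares are a description of the 2 cultures and carry no test. The data are 6 libraries of single-cell RNA-seq. GL261, a mouse glioma cell line, gave 2 libraries after growth in differentiation medium containing FCS (fetal calf serum). GL261-GSCs, labelled as glioblastoma stem cells and kept as neurospheres in defined GSC medium, gave 4. Medium and sphere growth went together, so they cannot be told apart, and the labels state neither whether cells or nuclei were captured nor whether replicates were separate cultures. P-values between the cultures therefore measure only the spread between these libraries. Those within GL261-GSCs measure how alike the difference between classes of cells was over its libraries.

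In the developing ventral neural tube and forebrain, Sonic hedgehog signalling switches on the basic helix-loop-helix factor Olig2, and Olig2 with its neighbour Olig1 directs progenitors toward the oligodendrocyte lineage. Sox10 and Sox8 are SoxE proteins that keep precursors in the lineage, and Sox10 later drives myelin genes together with Myrf, a membrane-anchored factor that is cleaved to enter the nucleus. Nkx2-2 is a homeodomain repressor that helps time differentiation, and Zfp488 is a zinc finger partner of Olig2. Olig2 is also a common marker of glioma stem cells, while Sox10 marks neural crest derivatives such as Schwann cells and melanocytes as well.

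A library held 80899005 to 121309232 UMIs (unique molecular identifiers, each standing for a counted RNA molecule), of which 33320530 to 79472306 lay in 4264 to 7275 called cells. The median depth of a cell was 15478 and 13652 UMIs in the GL261 libraries and 15375, 11890, 10638 and 6670 UMIs in GL261-GSCs replicates 1 to 4. Any 2 libraries shared 32 to 59 called barcodes, where 26.1 to 57.9 were expected from their numbers of cells. For Olig1, Olig2, Sox8, Myrf and Zfp488 both of GL261-GSCs replicates 3 and 4 stood above both of replicates 1 and 2, so these are called the second and the first pair below. For Olig1 the margin was small, with replicate 4 at 843 and replicate 2 at 837 CPM. Remarks that the levels of these factors were higher in the second pair restate this. Levels are in CPM: the UMIs that a gene had in all called cells of a library were added up and scaled to a common total, with library sizes adjusted by TMM. A gene given with 0 UMIs had none in called cells. Levels come from 5′ ends of transcripts and are not scaled for gene length, so levels are compared between libraries and not between genes.

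The 7 factors split into 3 patterns. Olig1 and Olig2 were abundant in GL261-GSCs and nearly absent from GL261. Sox8, Myrf and Zfp488 showed the same direction, at 2.50 to 33.9 CPM in GL261-GSCs. Sox10 stood at the same level in both cultures, and Nkx2-2 was present in both with a small difference.

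Olig2 lies on chromosome 16 (ENSMUSG00000039830.9, 91225457 to 91228677, plus strand, GRCm38, GENCODE M21). It stood at 0.918 and 0.0166 CPM in GL261 replicates 1 and 2, and at 401, 413, 787 and 628 CPM in GL261-GSCs replicates 1 to 4. All 4 GL261-GSCs libraries were high, with the second pair above the first, and the groups did not overlap. The means were 557 ± 185 CPM (SD, n = 4) and 0.467 ± 0.637 CPM (SD, n = 2), a ratio of 1192. Nearly all of that GL261 signal was in replicate 1, with 62 UMIs against 1 UMI in replicate 2, so the size of the ratio rests on that library.

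Olig1 (ENSMUSG00000046160.6, chromosome 16, 91269772 to 91271933, plus strand) starts 44315 bases downstream of Olig2. It stood at 1.30 and 0.0166 CPM in GL261 and at 383, 837, 892 and 843 CPM in GL261-GSCs replicates 1 to 4. GL261-GSCs replicate 1 stood below the other 3 libraries, which lay close together, and no GL261-GSCs library came near the GL261 levels. The means were 739 ± 238 CPM (SD, n = 4) and 0.660 ± 0.910 CPM (SD, n = 2), a ratio of 1119.8. GL261 replicate 1 held 88 Olig1 UMIs and replicate 2 held 1, so the size of this ratio rests on replicate 1 as well.

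The 4 GL261-GSCs libraries stood in the same order of CPM for both Olig genes, but with different spacing. Olig1 and Olig2 had 25297 and 26458 UMIs in GL261-GSCs replicate 1, 60696 and 29920 in replicate 2, 71319 and 62957 in replicate 3, and 30697 and 22869 in replicate 4. In CPM, replicates 1 and 2 stood close in Olig2 and apart in Olig1, and replicates 2 and 3 close in Olig1 and apart in Olig2.

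Sox8 (ENSMUSG00000024176.10, chromosome 17, 25565892 to 25570686, minus strand) stood at 0.400 and 0.282 CPM in GL261, and at 7.05, 11.0, 16.8 and 22.9 CPM in GL261-GSCs replicates 1 to 4. The lowest GL261-GSCs library was far above both GL261 libraries, and the second pair was above the first. The means were 14.4 ± 6.94 CPM (SD, n = 4) and 0.341 ± 0.0836 CPM (SD, n = 2), a ratio of 42.4.

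Myrf (ENSMUSG00000036098.15, chromosome 19, 10208272 to 10240748, minus strand) stood at 1.48 and 0.795 CPM in GL261, and at 17.8, 21.3, 27.2 and 33.9 CPM in GL261-GSCs replicates 1 to 4. Its GL261-GSCs libraries were in the same order as those of Sox8 and did not overlap GL261. The means were 25.05 ± 7.06 CPM (SD, n = 4) and 1.14 ± 0.485 CPM (SD, n = 2), a ratio of 22.0.

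Zfp488 (ENSMUSG00000044519.8, chromosome 14, 33967070 to 33978764, minus strand) had few UMIs in any library. It had 0 UMIs in GL261 replicate 1 and 1 UMI in replicate 2, against 165, 223, 444 and 158 UMIs in GL261-GSCs replicates 1 to 4. In CPM the GL261-GSCs libraries stood at 2.50, 3.08, 5.55 and 4.34, again higher in the second pair, with a mean of 3.87 ± 1.36 (SD, n = 4). From 990 UMIs against 1, the ratio was 497 with a 95% counting interval of 89.0 to 19646, which covers counting error only.

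Sox10 (ENSMUSG00000033006.10, chromosome 15, 79154908 to 79165240, minus strand) went another way. It stood at 330 and 358 CPM in GL261, and at 382, 358, 304 and 329 CPM in GL261-GSCs replicates 1 to 4. The groups overlapped, and the order within GL261-GSCs was the reverse of that of Olig2 between the pairs, with the first pair above the second. The means were 343 ± 34.0 CPM (SD, n = 4) and 344 ± 19.5 CPM (SD, n = 2), a ratio of 0.997. Scaled by library size alone the means were 355 CPM in GL261-GSCs and 321 CPM in GL261. Sox10 was thus the one factor of the set whose libraries overlapped between the cultures.

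Nkx2-2 (ENSMUSG00000027434.11, chromosome 2, 147177546 to 147194243, minus strand) stood at 12.7 and 11.6 CPM in GL261, and at 16.9, 19.2, 16.1 and 19.1 CPM in GL261-GSCs replicates 1 to 4. Every GL261-GSCs library was above both GL261 libraries, by a small margin. The means were 17.8 ± 1.56 CPM (SD, n = 4) and 12.1 ± 0.779 CPM (SD, n = 2), a ratio of 1.47. Nkx2-2os, annotated as antisense and overlapping the gene, stood at 10.9 ± 0.907 CPM (SD, n = 2) and 15.2 ± 3.66 CPM (SD, n = 4), and the sources used here do not give whether counting used strand. Counted over the set, 6 of the 7 factors had all 4 GL261-GSCs libraries above both GL261 libraries, where 28.7% of the 18439 genes tested did so. Since the set was chosen for these levels, nothing is read from that count.

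**Figure D1:**
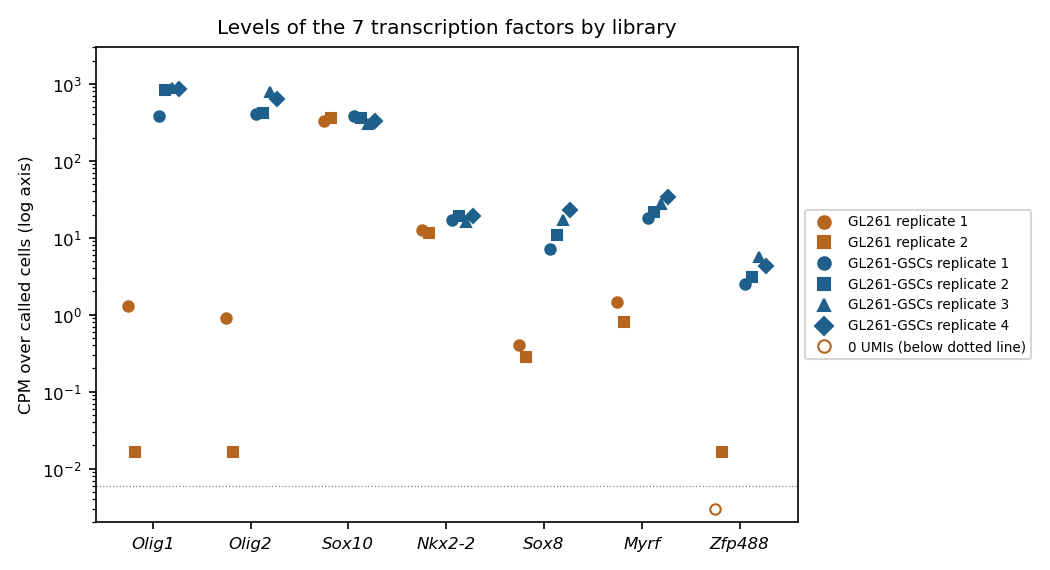
Level of each factor in each library, in CPM over called cells on a log axis; GL261 libraries are brown, GL261-GSCs libraries blue, and the open symbol under the dotted line marks 0 UMIs. Olig1 and Olig2 lie between 383 and 892 CPM in GL261-GSCs and at or under 1.30 CPM in GL261, while the Sox10 symbols of both groups lie between 304 and 382 CPM.

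The window from 250 bases before to 50 bases after the RefSeq start was in the sequence table for Olig2, Sox8, Zfp488 and Nkx2-2, 4 of the 7 factors. RefSeq starts can differ from the GENCODE starts given above: the Nkx2-2 window lies inside the GENCODE gene, and that of Olig2 spans the GENCODE start at base 91225457, upstream of its TATAAA. These windows are shown because 3 of the genes were nearly absent from one culture and Nkx2-2 was expressed in both. They were searched on both strands for the E-box CANNTG, the class of site that Olig proteins bind, its subtype CAGNTG (each such match is also a CANNTG match), the Sox motif ACAAAG, the Nkx2 motif TNAAGTG, and TATAAA. Sequences are from RefSeq on GRCm38.p6, written 5′ to 3′ on the strand of the gene. Capitals mark CANNTG in Sox8, Zfp488 and Nkx2-2, and TATAAA in Olig2, which holds no CANNTG.
Olig2, chr16:91225300-91225599, plus strand: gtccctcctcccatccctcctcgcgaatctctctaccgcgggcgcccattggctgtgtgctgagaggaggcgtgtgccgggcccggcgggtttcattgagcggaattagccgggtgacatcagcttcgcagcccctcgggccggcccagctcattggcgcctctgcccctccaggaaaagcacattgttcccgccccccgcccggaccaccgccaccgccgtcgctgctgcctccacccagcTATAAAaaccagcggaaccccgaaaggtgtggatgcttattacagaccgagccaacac
Sox8, chr17:25570637-25570936, minus strand: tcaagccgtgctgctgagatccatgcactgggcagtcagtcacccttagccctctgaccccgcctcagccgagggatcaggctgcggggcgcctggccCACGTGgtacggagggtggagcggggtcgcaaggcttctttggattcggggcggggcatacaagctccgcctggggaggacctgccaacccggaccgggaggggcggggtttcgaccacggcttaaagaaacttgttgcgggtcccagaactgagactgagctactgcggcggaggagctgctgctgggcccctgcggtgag
Zfp488, chr14:33978715-33979014, minus strand: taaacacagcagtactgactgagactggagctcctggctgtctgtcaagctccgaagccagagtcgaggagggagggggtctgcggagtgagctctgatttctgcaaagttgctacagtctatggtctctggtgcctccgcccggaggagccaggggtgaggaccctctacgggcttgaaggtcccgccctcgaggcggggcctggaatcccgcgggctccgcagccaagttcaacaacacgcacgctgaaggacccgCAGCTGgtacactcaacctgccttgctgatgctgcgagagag
Nkx2-2, chr2:147186353-147186652, minus strand: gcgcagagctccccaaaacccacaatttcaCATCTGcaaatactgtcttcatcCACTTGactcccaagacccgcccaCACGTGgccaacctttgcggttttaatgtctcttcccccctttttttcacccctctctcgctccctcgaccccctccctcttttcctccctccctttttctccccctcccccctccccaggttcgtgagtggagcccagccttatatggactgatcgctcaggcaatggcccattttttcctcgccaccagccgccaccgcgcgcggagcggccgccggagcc

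The Nkx2-2 window held 3 CANNTG matches, those of Sox8 and Zfp488 held 1 each, and that of Olig2 held 0, where 72.3% of the 32851 promoter windows of the same length held at least 1. CAGNTG was found in Nkx2-2 and Zfp488 and in 51.4% of all windows. ACAAAG was found in 0 of the 4 windows, against 18.7% of all. TNAAGTG was found in Nkx2-2 alone, on the other strand from base 54 where it overlaps the CANNTG match CACTTG, against 11.5% of all windows. TATAAA was found in Olig2 alone, starting at base 243 of the window counted from 1 at its 5′ end, against 13.6% of all. All 4 windows were rich in CG dinucleotides, with 25 in Olig2, 21 in Sox8, 17 in Nkx2-2 and 16 in Zfp488, where the median window held 7. A match describes letters in these windows and no more.

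The share of cells with a UMI of each factor was compared at 2000 UMIs, to which each called cell was thinned and which all of them reached. In GL261-GSCs, Olig2 was found in 51.5%, 53.5%, 75.1% and 69.5% of the cells of replicates 1 to 4. Olig1 was seen in 48.2%, 75.1%, 77.0% and 75.8%. GL261 replicate 1 gave Olig2 in 13 of 4808 cells (0.270%, Clopper-Pearson 95% interval 0.144 to 0.462) and Olig1 in 14. GL261 replicate 2 gave 0 of 5002 cells for both, where the upper end of the same interval is 0.0737% and the limit of 3 counts is 0.060%. These bounds cover counting error only, and concern cells with a UMI at this depth, not cells expressing the gene. At this depth Olig2 was thus found in over 50% of the cells of each GL261-GSCs library, and Olig1 in 3 of the 4, with replicate 1 lowest for both. Barcodes between 100 and 1000 UMIs served as a measure of free RNA. At their median depth and composition, free RNA alone is expected to put Olig2 in 4.45%, 3.78%, 10.9% and 15.2% of the cells of replicates 1 to 4, and Olig1 in 4.05%, 7.35%, 11.6% and 19.1%. These expected shares were higher in the second pair too, and in every GL261-GSCs library they lay far under the share seen. Each library is labelled as 1 cell type, so no other type gives a direct background.

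Sox10 was seen in 41.9% and 44.7% of GL261 cells and in 52.0%, 50.2%, 44.9% and 50.9% of GL261-GSCs cells at that depth. The lowest GL261-GSCs library lay just above the higher GL261 library, though the CPM of the groups overlapped, so no order is read from the shares. The share expected from free RNA was 2.10% and 2.07% in GL261 and 2.76% to 7.17% in GL261-GSCs. Nkx2-2 was seen in 2.41% and 1.94% of GL261 cells and in 2.96% to 4.52% of GL261-GSCs cells. Myrf was seen in 3.33%, 4.22%, 5.87% and 8.20% of GL261-GSCs cells, Sox8 in 1.38%, 2.42%, 3.60% and 4.74%, and Zfp488 in 0.539%, 0.545%, 1.21% and 0.798%. In a GL261 library each of these 3 factors was seen in at most 16 cells. For each of Nkx2-2, Sox8, Myrf and Zfp488 the free RNA share was under 0.80% in every library and under the share seen in each GL261-GSCs library.

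Without thinning, Olig2 was seen in 94.2%, 92.9%, 96.7% and 89.6% of GL261-GSCs cells, Olig1 in 91.6%, 96.8%, 97.6% and 92.0%, and Sox10 in 83.2% to 96.1% of the cells of all 6 libraries. Free RNA is expected to give more at that depth, from 22.1% to 43.1% for Olig1 and from 16.9% to 38.1% for Olig2 in these libraries. The set was therefore also counted per cell. At 2000 UMIs a GL261-GSCs cell held a UMI of 1.61, 1.90, 2.11 and 2.15 factors on average in replicates 1 to 4, and a GL261 cell of 0.453 and 0.468. At least 3 of the factors were seen in 18.1%, 26.2%, 33.3% and 36.4% of GL261-GSCs cells and in 0 cells of either GL261 library. At 2000 UMIs most factors detected in GL261 cells were Sox10. Without thinning, Nkx2-2 was seen in 15.1% and 12.1% of the cells of GL261 replicates 1 and 2. At least 3 factors were then seen in 59 and 7 cells of these libraries.

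**Figure D2:**
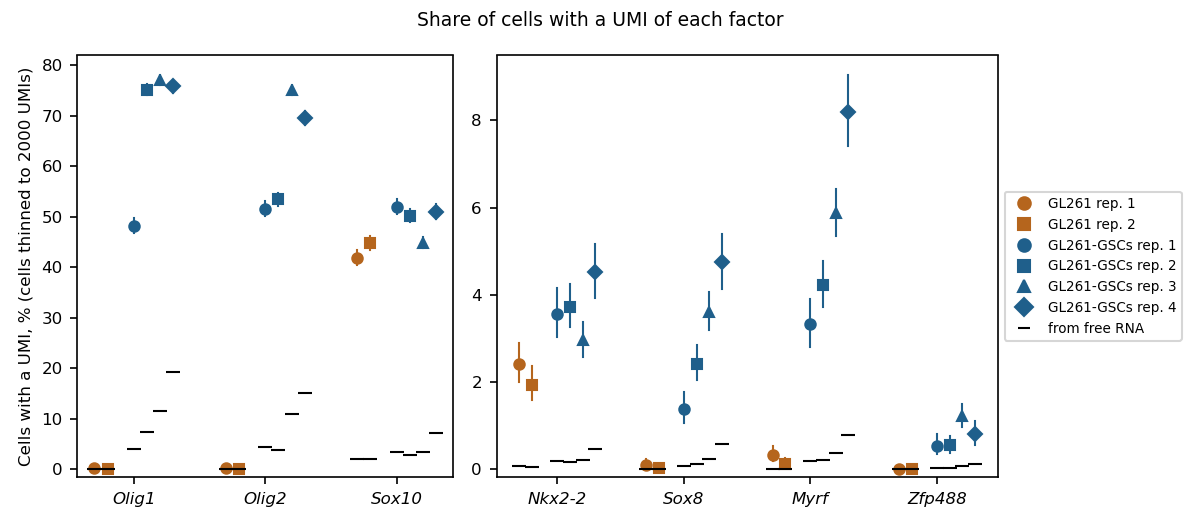
Percent of cells in which each factor was seen (1 UMI or more), after thinning to 2000 UMIs; vertical lines are 95% exact binomial intervals and black dashes the share expected from free RNA. Olig1 and Olig2 lie between 48.2% and 77.0% in GL261-GSCs and under 0.30% in GL261, and the right panel shows the other 4 factors on a smaller scale.

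The few Olig1 and Olig2 UMIs of GL261 were looked at cell by cell. In replicate 1 they lay in 135 of 4808 cells, with at most 2 UMIs of either factor in a cell, and 5 cells held both where independence gives 0.998. Olig1 was seen in 1.66% and Olig2 in 1.25% of its cells without thinning, where free RNA alone is expected to give 0.083% and 0.052%. The source of these UMIs was not tested. These 135 cells had a median of 17346 UMIs against 15478 in all cells of the library. Sox10 was seen in 127 of the 135, or 94.1% against 88.0% of all cells of that library. Pdgfra, the growth factor receptor of oligodendrocyte precursors, was seen in 23 of them, or 17.0% against 9.42%. Ptprz1, which averaged 277 CPM in GL261-GSCs, was seen in 1 of the 135, or 0.741% against 0.187%. Kit and Cntn1 were seen in 0 of them and in 0 of all cells, and Fabp7, a glial lipid carrier, in 0 of them and 0.0832% of all. Ly6a and Klk8, which most GL261 cells held, were seen in 91.9% and 97.8% of the 135 against 83.7% and 94.8% of all. Of their barcodes 3 were also called in another library. Over all its cells, replicate 1 shared 33 to 45 barcodes with each other library, where 27.8 to 47.4 were expected by chance. In replicate 2 the factors were seen in 2 cells.

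Within GL261-GSCs, the factors were compared along the cell cycle, a contrast that did not enter their choice. In each library G2/M-high cells were the top 20% by share of UMIs in 51 G2/M genes. S-high cells were the top 20% by share in 39 S genes, without the G2/M-high cells, which left 679 to 1273 cells. Low cells were under the library median of both shares. The factors are in neither list, and UMIs were summed per library and class and compared with the library as a block. In G2/M-high cells Olig1, Sox8 and Myrf fell and Olig2 rose, 4 of the 7 factors, where 48.3% of the 13794 genes tested were called, 22.3% higher and 26% lower, so the count is near the background. In S-high cells Olig1, Sox10, Nkx2-2 and Sox8 fell, again 4 of 7, all lower, where 39.5% of 13673 genes were called, 18.4% higher and 21.1% lower. Without replicate 3 the genes called over all numbered 4194 of 13655 in place of 6662, and 2722 of 13618 in place of 5401. Low cells enter both fits, each with its own scaling.

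Olig1 stood at 249, 699, 604 and 638 CPM in G2/M-high cells of replicates 1 to 4, and at 539, 1042, 1306 and 1049 CPM in the low cells of the same libraries. It was lower in G2/M-high cells of all 4 libraries. On the log2 scale it fell by 0.89 (SE 0.10, edgeR adjusted p = 0.000278), with -0.95 to -0.80 when 1 library was left out. Olig2 stood at 440, 490, 881 and 736 CPM in G2/M-high cells and at 424, 386, 794 and 618 CPM in low cells. It was higher in all 4 libraries, least in replicate 1, and the fitted log2 change was 0.19 (SE 0.066, edgeR adjusted p = 0.0377). That call was lost without replicate 2, 3 or 4 (adjusted p = 0.0812, 0.0963 and 0.0748), with the top 10% of cells (0.113) and with cells thinned to 2000 UMIs (0.191). With all 4 libraries in the fit the settings gave an adjusted p of 0.00961 to 0.191. The fitted changes of the 2 neighbouring Olig genes had opposite signs in G2/M-high cells, but the difference between them was not tested.

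Sox8 was lower in G2/M-high cells of all 4 libraries, with log2 ratios of -0.10, -0.32, -0.71 and -0.96 in replicates 1 to 4. The second pair showed the larger differences, but its low cells also had lower S and G2/M shares than those of the first pair. The fitted change was -0.56 (SE 0.13, adjusted p = 0.00793, edgeR). Without replicate 3 the adjusted p was 0.0627, and with thinned cells 0.0920. Myrf was lower in all 4 as well, at -0.17, -0.08, -0.47 and -0.37, with a fitted change of -0.29 (SE 0.081, adjusted p = 0.0187, edgeR). The Myrf call was lost without replicate 3 (0.115), under DESeq2 (0.0552), with the top 10% of cells (0.177) and with thinned cells (0.0955). Sox10 (0.00), Nkx2-2 (-0.09) and Zfp488 (-0.27) were not called, with adjusted p of 0.958, 0.424 and 0.270 in edgeR.

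In S-high cells Sox8 showed the largest change of the 7, with log2 ratios of -0.60, -0.41, -1.04 and -1.01 in replicates 1 to 4 and a fitted change of -0.84 (SE 0.13, adjusted p = 0.00170, edgeR). Sox10 stood at 350, 320, 262 and 282 CPM in S-high cells and at 444, 401, 359 and 376 CPM in low cells. It was lower in all 4 libraries by a like amount, with a fitted change of -0.43 (SE 0.062, adjusted p = 0.00113, edgeR). Its adjusted p stayed under 0.05 in every setting run, the highest being 0.0165 without replicate 3. Nkx2-2 was lower in all 4, at -0.43, -0.23, -0.27 and -0.27, with a fitted change of -0.34 (SE 0.081, adjusted p = 0.0107, edgeR). The call was lost without replicate 3 (0.0580) and with thinned cells (0.219). Olig1 was lower in all 4, with a fitted change of -0.29 (SE 0.073, adjusted p = 0.0142, edgeR), a call lost without replicate 3 (0.0991). Olig2 (-0.05), Myrf (-0.20) and Zfp488 (-0.04) were not called, at adjusted p of 0.612, 0.108 and 0.857 in edgeR, and Myrf was called without replicate 1 (0.0384).

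The classes are ranges of a score and not cell types, and 252 to 830 cells of a library lay within 10% of a class threshold. G2/M-high cells also held more UMIs than low cells, with medians of 17151 against 13673 in replicate 1 and 7962 against 6613 in replicate 4. The part of depth in these results was tested only by thinning, where the classes were redrawn from the thinned UMIs. Calls lost there therefore cannot tell depth apart from the redrawn classes. In GL261, where Sox10 and Nkx2-2 alone had UMIs enough, Sox10 was higher in G2/M-high cells by 0.20 and 0.21 and lower in S-high cells by -0.16 and -0.21 (log2 ratios, replicates 1 and 2). Nkx2-2 stood at -0.37 and -0.62 in G2/M-high cells and at 0.02 and -0.29 in S-high cells. These GL261 ratios come from CPM scaled by the UMIs of each class alone, without the TMM used for GL261-GSCs. They have no test, and the difference between the cultures was not tested.

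**Figure D3:**
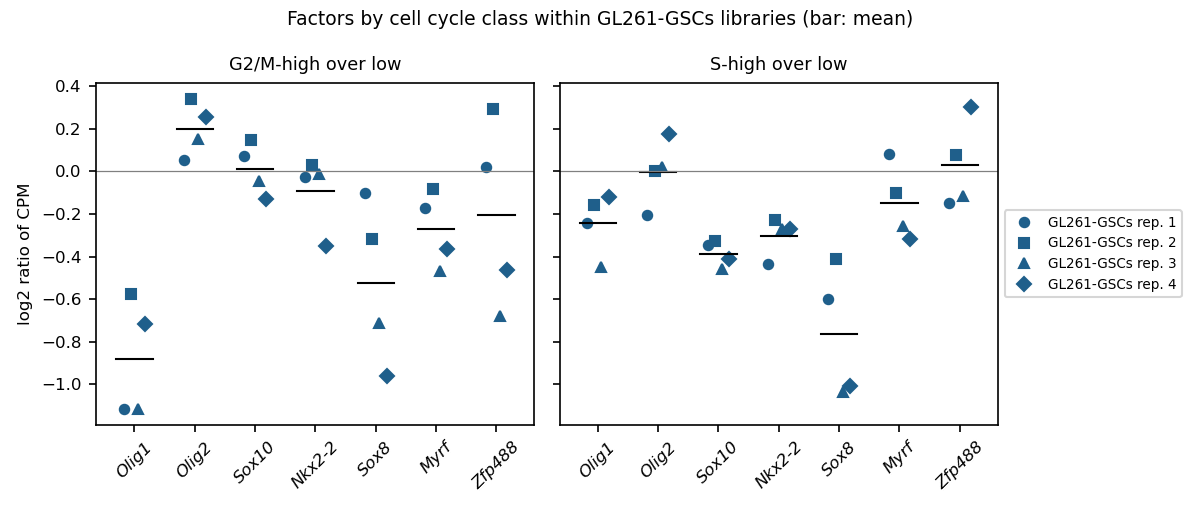
Log2 ratio of CPM in G2/M-high (left) or S-high (right) over low cells for each factor in each GL261-GSCs library, with the mean as a bar. All 4 libraries lie under 0 for Olig1 and Sox8 in both panels and for Sox10 in the right panel, and all 4 lie over 0 for Olig2 in the left panel.

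Cells were then divided by Olig2 itself. A GL261-GSCs cell was Olig2-positive when at least 1 of 2000 kept UMIs was Olig2, and the classes were summed per library and compared with the library as a block. Olig2-negative cells numbered 2066, 2731, 1811 and 1374 in replicates 1 to 4. Without thinning, Olig2 was seen in 94.2%, 92.9%, 96.7% and 89.6% of all cells of these libraries. Most Olig2-negative cells thus held Olig2 UMIs that thinning left out, so the split is by level more than by presence. Olig1 and Sox10 rose in Olig2-positive cells, 2 of the 6 other factors, where 5.91% of the 12171 genes tested were called, 2.8% higher and 3.11% lower. These were 341 higher and 378 lower, against 155 and 20 under DESeq2 and 508 and 229 without the filter. Olig1 stood at 429, 1022, 1023 and 922 CPM in Olig2-positive cells of replicates 1 to 4 and at 360, 824, 797 and 697 CPM in Olig2-negative cells. It was higher in all 4 libraries, with a fitted log2 change of 0.30 (SE 0.038, edgeR adjusted p = 1.19e-09). Sox10 stood at 442, 409, 343 and 382 CPM in positive and at 363, 359, 302 and 315 CPM in negative cells. It too was higher in all 4, with a fitted log2 change of 0.20 (SE 0.040, edgeR adjusted p = 0.000479).

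Both calls held in every setting run, with Olig1 between 0.23 and 0.42 and Sox10 between 0.16 and 0.27 on the log2 scale. Nkx2-2 (-0.05), Sox8 (-0.04), Myrf (-0.09) and Zfp488 (0.50) were not called, with adjusted p of 0.860, 0.911, 0.640 and 0.242 in edgeR. Zfp488 was higher in positive cells of all 4 libraries, at levels of 1.48 to 6.88 CPM, with an SE of 0.25. Positive cells held more UMIs before thinning in replicates 2, 3 and 4, with medians of 12025 against 11730, 10822 against 9905 and 6922 against 6050. In replicate 1 the medians were 15334.5 against 15400. Among cells with at least 5000 UMIs and under 3% mitochondrial UMIs, whose medians in replicates 3 and 4 were 12510 against 12735 and 9878 against 9771, the changes were 0.23 for Olig1 and 0.16 for Sox10.

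**Figure D4:**
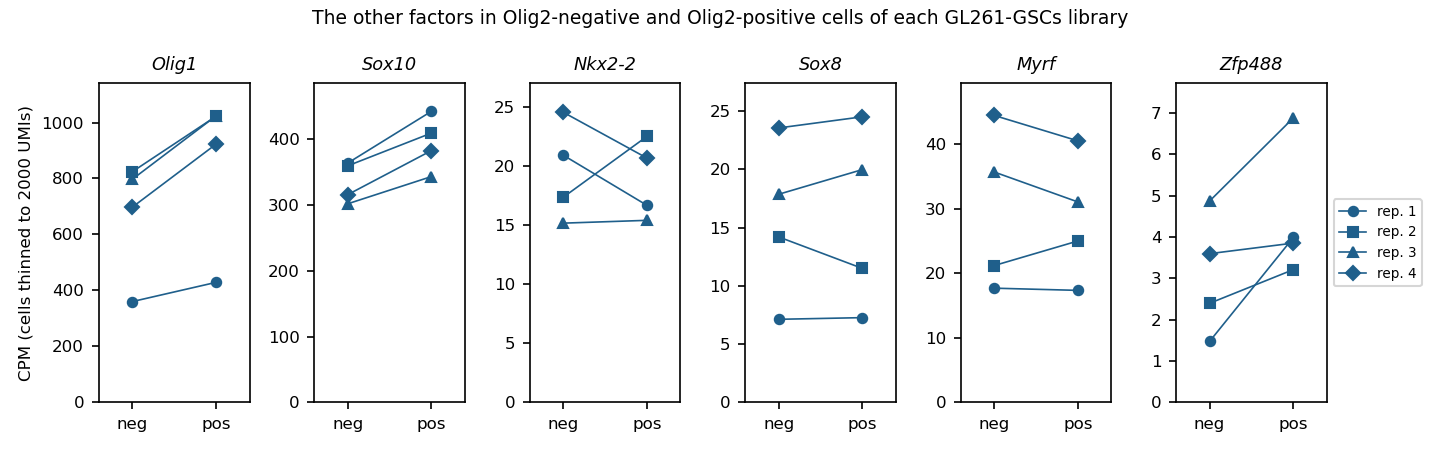
CPM of the other 6 factors in Olig2-negative (neg) and Olig2-positive (pos) cells, 1 line per GL261-GSCs library, each axis starting at 0. The lines of Olig1 and Sox10 rise in all 4 libraries, while those of Nkx2-2, Sox8 and Myrf run both ways.

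Genes outside the set also differed between these classes. Taking genes whose mean log2 CPM reached 5 and that went 1 way in all 4 libraries, the 6 largest rises were those of Gng3, Nmral1, Pja1, Tsr3, Kifc1 and Jagn1, from 0.29 to 0.35 on the log2 scale. The 6 largest falls were those of Hmga2, Kcnq1ot1, Col2a1, Dleu2, Cped1 and Mt3, from -0.48 to -0.42. Col2a1, a collagen, and Mt3, a metallothionein, were called in every setting run, while each of the other 10 was lost in at least 1. In the deeper cells with few mitochondrial UMIs Hmga2, a chromatin protein, was at -0.23 (edgeR adjusted p = 0.0859), and Gng3, Nmral1, Pja1, Tsr3, Kcnq1ot1, Dleu2 and Cped1 were not called there. Nmral1 and Tsr3 were not called without replicate 2 (0.0727 and 0.0754), nor Tsr3, Kifc1 and Jagn1 without replicate 3 (0.0697, 0.126 and 0.0509). Over the settings with all 4 libraries (edgeR, DESeq2 or limma-voom) the highest adjusted p was 0.769 for Kifc1 and 0.729 for Jagn1. Over all genes 719 were called, against 80 in the deeper cells, 129 in low cycling cells and 381, 171 and 205 without replicates 2, 3 and 4. Of the lineage lists, with 5.91% of all genes called as background, Cnp rose by 0.17 and Mbp fell by 0.29 among 11 myelin genes tested, and Vcan fell by 0.20 and Xylt1 by 0.27 among 13 precursor genes tested. Tcf12 fell by 0.12 and Ep300, a histone acetyltransferase, by 0.22 among 14 partners. Id3 fell by 0.41 and Id2 rose by 0.24 among 9 inhibitors, Gli3, an effector of the hedgehog pathway, fell by 0.33 among 5 Shh genes, and Sox2, a progenitor factor, rose by 0.16 among 9 other fate factors. The edgeR adjusted p of these genes ran from 9.8e-05 for Id3 to 0.0400 for Vcan, 0.0405 for Sox2 and 0.0413 for Tcf12.

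Pairs of factors were also counted in the same cell, as a description with no test. Over the 21 pairs at 2000 UMIs, 11 were seen together more often than the product of their shares in all 4 libraries, and 7 among the deeper cells with few mitochondrial UMIs. Of the 15 pairs with at least 10 such cells expected in every library, 8 were. Pairs of other genes were not counted, so these counts have no background and are not read as particular to the factors. Olig1 with Olig2 exceeded the product by little, with ratios of 1.05, 1.03, 1.02 and 1.03 in replicates 1 to 4. Sox10 with Sox8 gave 1.27, 1.14, 1.17 and 1.19, from 39 to 137 cells with both. Sox10 with Zfp488 gave 1.12 to 1.31 from 14 to 50 cells. The counting intervals of the Sox10 pairs with Sox8 and with Zfp488 included 1 in each library.

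The genes around the factors were read from the fit over all genes, in which 29.9% of 18439 genes passed the threshold, 15.8% with a higher and 14.1% with a lower level in GL261-GSCs. The median log2 fold change over all genes was 0.04, and 0.18 when libraries were scaled by size alone, which gave 3491 genes higher and 2034 lower in place of 2920 and 2594. Without GL261 replicate 1 or 2 the genes called numbered 1972 and 1817 in place of 5514. Of 15 oligodendrocyte precursor genes tested, 10 were called, each higher, with a median log2 fold change of 3.82. With the replicate number as a block, or with GL261-GSCs replicates 1 and 2 alone, 11 were higher and 2 lower. The block fit too compares the cultures through replicates 1 and 2 only, since GL261 has no others. Ptprz1, a receptor phosphatase, stood at 0.133 and 0.0166 CPM in GL261 and at 172, 151, 350 and 436 CPM in GL261-GSCs. It rose by 11.77 on the log2 scale (SE 0.96, edgeR adjusted p = 0.000370) from 10 UMIs in GL261, of which replicate 1 held 9. Without GL261 replicate 2 the rise was 10.99, and without replicate 1 a single UMI is left, so the size of the rise rests on these libraries. Pcdh15, a cadherin, had 2 UMIs in GL261 and stood at 24.5, 6.03, 135 and 168 CPM in GL261-GSCs, a ratio of 4766 (95% counting interval 1319 to 39361), and its call was lost without either GL261 library (0.0890 and 0.0919) and under limma-voom (0.158). Cspg4, the NG2 proteoglycan of precursors, was abundant in both cultures and not called (-0.52, SE 0.44, adjusted p = 0.400, edgeR).

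Of 16 myelin genes tested, 8 were called higher and 2 lower, with a median of 3.004. Opalin, a myelin membrane protein, stood at 0.0444 and 0.0497 CPM in GL261 and at 34.4, 61.5, 21.9 and 18.0 CPM in GL261-GSCs, a rise of 9.44 (SE 0.88, adjusted p = 0.000565, edgeR). Gpr37, a receptor of maturing oligodendrocytes, rose by 9.02 (SE 0.54), and by 9.75 without GL261 replicate 1. The myelin genes that fell were Mal, by 4.11 (SE 0.90), and Mbp, by 1.94 (SE 0.31). With 1 library left out the log2 changes were -4.59 to -3.44 for Mal and -2.27 to -1.52 for Mbp. Mbp, which encodes the basic protein of myelin, stood at 142 and 237 CPM in GL261 and at 70.5, 42.3, 34.5 and 50.7 CPM in GL261-GSCs. Without GL261 replicate 2 neither fall was called, at an adjusted p of 0.113 for Mal and 0.0538 for Mbp. The myelin list therefore did not go 1 way.

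Among 14 partners and chromatin factors of Olig and Sox proteins, Chd7, Tcf12 and Tcf4 rose and the other 11 were not called, with a median of 0.33. Tcf12, an E protein that pairs with Olig2, stood at 131 and 122 CPM in GL261 and at 419, 516, 456 and 536 CPM in GL261-GSCs, a rise of 1.93 (SE 0.16, adjusted p = 0.000386, edgeR). Chd7, a chromatin remodeller that works with Sox10, rose by 3.93 (SE 0.45, adjusted p = 0.00131, edgeR). Scaling by library size called 7 of the list, each higher, 5 were called without GL261-GSCs replicate 1 or 2, and replicates 3 and 4 alone gave 8 higher and 1 lower.

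Of 11 inhibitors of the lineage tested, 5 were called lower and 2 higher. Id3, a helix-loop-helix protein that ties up E proteins, stood at 943 and 889 CPM in GL261 and at 56.0, 59.3, 22.1 and 22.3 CPM in GL261-GSCs, a fall of 4.52 (SE 0.46, adjusted p = 0.000806, edgeR). Id1 fell by 4.24 (SE 0.28, adjusted p = 0.000175, edgeR), and Hes1, Id2 and Zfp536 were also lower. Gpr17, a brake on differentiation that is also in the precursor list, rose by 5.44 (SE 0.32). Hes5 rose by 5.91 (SE 1.48, adjusted p = 0.0247, edgeR) from 5 UMIs in GL261, a call lost without either GL261 library, without GL261-GSCs replicate 3 and under limma-voom. The list's median was -0.27, and 4 of its genes were called without GL261 replicate 1 or 2.

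Of the Sonic hedgehog and ventral patterning genes only 6 of 14 had UMIs enough to test, and Ptch1, the receptor and target of the pathway, was called. It stood at 8.16 and 8.13 CPM in GL261 and at 20.3, 18.3, 29.1 and 31.6 CPM in GL261-GSCs, a rise of 1.61 (SE 0.27, adjusted p = 0.00599, edgeR) that was not called without either GL261 library. Shh itself and its effector Gli2 had 0 UMIs in the called cells of all libraries. Gli1, a target of the pathway, had 14 UMIs over GL261 and 9 over GL261-GSCs. Among paralogues of the 7 factors, Bhlhe22, a relative of the Olig genes, stood at 48.1 and 42.2 CPM in GL261 and at 4.79, 1.93, 0.800 and 1.13 CPM in GL261-GSCs, a fall of 4.38 (SE 0.65, adjusted p = 0.00357, edgeR). Without GL261-GSCs replicate 1 it fell by 5.11. The other 11 paralogues were not tested, and Sox9, the third SoxE gene beside Sox8 and Sox10, had 0 UMIs in the called cells of all libraries. Among 11 other neural fate factors tested, 4 were higher and 3 lower, and without GL261 replicates 1 or 2 those called numbered 4 and 3. Gsx2, a homeodomain factor of the ventral forebrain, had 0 UMIs in both GL261 libraries. With 3 UMIs taken as the floor of that group, it was at least about 589-fold higher in GL261-GSCs. Neurog2, a proneural factor, was counted 196 times in GL261-GSCs against 2 UMIs in GL261, a ratio of 49.2 (95% counting interval 13.4 to 409). Dlx1, a factor of interneuron progenitors, fell by 2.48 (SE 0.32, edgeR adjusted p = 0.00192). Nfix, a nuclear factor I protein, fell by 0.71 (SE 0.18, edgeR adjusted p = 0.0286), a call lost without GL261 replicate 1 (0.108) or 2 (0.214) and with library size scaling (0.0684).

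**Figure D5:**
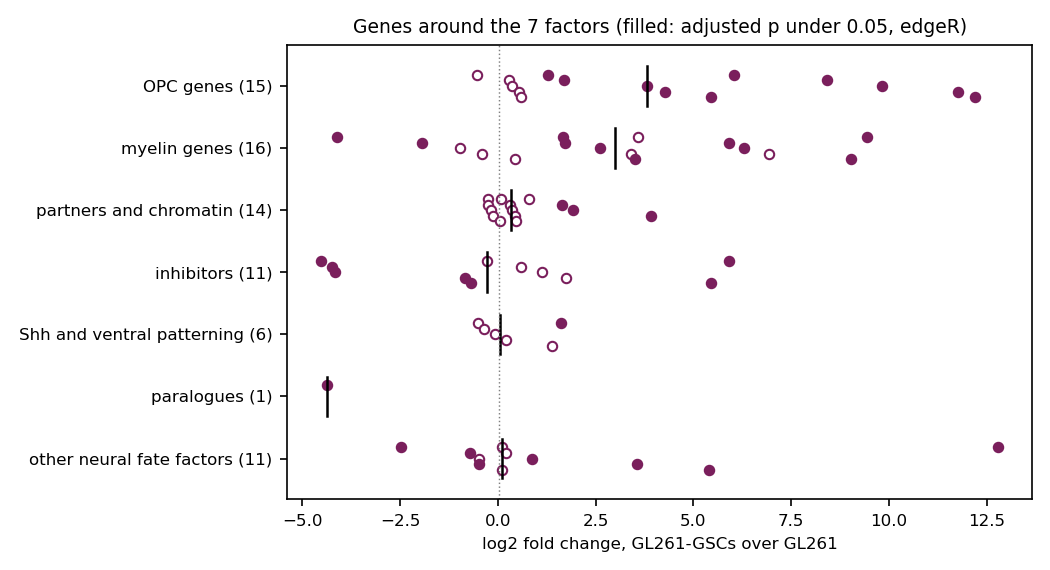
Log2 fold change of each tested gene of the 7 lists, GL261-GSCs over GL261, with filled symbols for an adjusted p under 0.05 (edgeR), black bars for list medians and a dotted line for the median of all genes; folds of genes with 3 or fewer UMIs in a group depend on the fit. The precursor and myelin lists have medians of 3.82 and 3.004, while the other lists with more than 1 gene lie between -0.27 and 0.33.

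Markers of other cell types were read beside Sox10, which neural crest cells share. Their counts stand against 29.9% of all genes called, 15.8% higher and 14.1% lower, and the lists are short. The Schwann and neural crest list summed to 408 to 493 CPM in GL261 and 68.9 to 123 CPM in GL261-GSCs, with 4 of 7 tested genes lower in GL261-GSCs. Ngfr stood at 242 and 297 CPM in GL261 and at 5.12, 1.09, 0.875 and 0.769 CPM in GL261-GSCs, while Erbb3, at 120 and 137 CPM in GL261 and 54.1 to 99.9 CPM in GL261-GSCs, was not called, and Foxd3 had 0 UMIs. Melanocyte markers summed to 6.14 to 7.61 CPM in GL261 and 8.13 to 14.1 CPM in GL261-GSCs, with 2 of the 3 tested genes higher, 1 lower and Mlana at 0 UMIs. Astrocyte markers summed to 90.9 to 97.1 and 188 to 278 CPM with Aqp4 at 0 UMIs and 3 of 6 tested genes higher and 2 lower, neuron markers to 85.3 to 92.5 and 37.5 to 83.3 CPM with Rbfox3 at 0 and 1 of 4 higher, immune markers to 19.9 to 20.97 and 9.22 to 23.1 CPM with 1 of 2 lower, and vascular and fibroblast markers to 254 to 287 and 11.7 to 27.7 CPM with Cldn5 at 0 and 3 of 5 lower. Their part in the levels of the factors was not tested.

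Genes beside the factors were examined for differences of their own. Within 500 kb of the 7 start sites, 132 other genes were tested and 27.3% were called, 27 higher and 9 lower. The share called was close to the 29.9% of all genes, of which 15.8% were higher and 14.1% lower. The calls near the factors thus leaned higher, with a median log2 fold change of 0.27 against 0.04 over all genes. With the replicate number as a block, a fit that rests on replicates 1 and 2, 30 were higher and 16 lower. Without GL261 replicate 1 or 2 the number called was 12 in place of 36. Around Olig2, 25 genes were tested and 7 called, each higher, with a median log2 fold change of 0.90 over the genes tested. The one nearest to Olig2, AC034116.4, starts 2531 bases upstream and had 1 UMI in GL261 against 2366 in GL261-GSCs, a ratio of 1188 (95% counting interval 213 to 46925). Gm37016, Gm15966 and AC034116.3, unstudied transcripts of the same stretch, held 0, 1 and 2 UMIs in GL261 and 37, 139 and 96 in GL261-GSCs. Gm15966 lies on the minus strand, from 91271777 to 91329043, and overlaps the end of Olig1. The protein-coding neighbours called were Eva1c, which rose by 2.19 (adjusted p = 0.0106), and the interferon receptor subunits Ifngr2, by 1.39 (0.0212), and Ifnar1, by 1.26 (0.0467), all in edgeR. Son and Gart, further along the same stretch, were not called (0.66 and 0.79).

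Neighbours of the other factors were read in the same way. Transcript 2810468N07Rik, antisense to Sox8 and starting 328 bases inside it, stood at 1.36 and 1.11 CPM in GL261 and at 15.7, 23.8, 23.2 and 28.7 CPM in GL261-GSCs, like Sox8, and rose by 4.20 (SE 0.32, adjusted p = 0.000289, edgeR). Without knowledge of strand in the counting, reads of the pair cannot be told apart where they overlap. Around Sox10, 34 genes were tested and 11 called higher and 3 lower. Gm10863, one of the 3, which starts 801 bases from Sox10 on the other strand, stood at 11.5 and 12.5 CPM in GL261 and 5.05 to 8.38 CPM in GL261-GSCs, and fell by 0.91 (SE 0.24, adjusted p = 0.0312, edgeR) while Sox10 stayed level. Within the Myrf window Fads3 fell by 3.12 and Fads1 rose by 1.39, and within the Zfp488 window Anxa8 and Glud1 fell.

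The genes most like the set across the 6 libraries, by Pearson r between their log2(CPM + 1) and the mean log2(CPM + 1) of the 7 factors among 5423 genes, were St5, Gpbp1, Fam13c, Fam19a2 and Rab3gap1, with r between 0.9989 and 0.9996. Fam13c stood at 0.800 and 0.497 CPM in GL261 and at 62.4, 101, 133 and 162 CPM in GL261-GSCs, and Gpbp1 at 59.0 and 56.8 against 85.1, 86.8, 89.5 and 91.1 CPM. With 2 groups that stand far apart such values rest on the step between the cultures, and no p is given.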

How the data were processed

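Single-cell 5′ libraries of GL261 (2) and GL261-GSCs (4) were read from the deposited UMI count matrices, which per the file headers came unfiltered from Cell Ranger 4, and per the submitters' processing notes were aligned to mm10. The sources used here do not give whether counting used strand. Barcodes were called cells at 10% of the 99th percentile of the top 3000 barcodes, with at least 500 genes and at most 10% mitochondrial UMIs. Doublets were not removed.

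UMIs were summed per library, or per library and class of cells, and tested with edgeR 4.0.16 (R 4.3.3; quasi-likelihood, TMM, filterByExpr, Benjamini-Hochberg over all genes, threshold 0.05, 2-sided); the fits within GL261-GSCs had the library as a block. DESeq2 1.42.0 and limma 3.58.1 served as alternatives. Counts, thinning and figures used Python 3.11.15. Positions came from GENCODE M21 (54409 of 54446 identifiers matched). On simulated data with 200 changed genes (log2 change 2), edgeR recovered 165 between the cultures, 192 for G2/M, 193 for S and 192 for the Olig2 split, with 7, 5, 6 and 6 false calls. The simulation gave all genes a common dispersion and a change larger than those of the factors within GL261-GSCs. Recovery of smaller changes was not measured.

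The members, lists and tests were chosen with earlier results of these data known. Named were the 7 members, the 2 largest called rises and falls of each list, the 6 largest of each in the Olig2 split, the 5 genes most like the set, and genes near Olig1 and Olig2; the other genes were named after their values were seen. Lists overlap: Gpr17 and Sox6 are in the precursor and inhibitor lists, Nkx6-2 in the myelin and Shh lists.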

Additional observations from a re-analysis of the deposited data

Results flagged for a closer look

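Over 52 sets of 4 GL261-GSCs libraries, 3 had a library far from the other 3, measured as its gap to the nearest divided by the whole range; chance gives such a flag in about 1 of 20 sets. For the level of Olig1 the measure was 0.893, with replicate 1 at 383 CPM and the others at 837 to 892 CPM. For the share of cells with Olig1 at 2000 UMIs it was 0.933, with replicate 1 at 48.2% and the others at 75.1% to 77.0%, so that level and share set the same library apart. Olig2 was not flagged in either. For the log2 ratio of Nkx2-2 between G2/M-high and low cells it was 0.848, with replicate 4 at -0.35 and the others between -0.03 and 0.03, which rests on 17.6 against 22.4 CPM in the library with the fewest UMIs per cell. The causes were not tested.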

How the results depend on the processing

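Between the cultures, 5514 genes were called; the number was 1817 to 6193 with 1 library left out, and 9881 (5171 higher, 4710 lower) with GL261-GSCs replicates 3 and 4 alone, chosen after seeing the data. Calls numbered 4194 to 6297 for G2/M and 2722 to 5073 for S with 1 library left out, and 3911 and 3207 with cells thinned to 2000 UMIs. The Olig2 split gave 171 to 854 calls with 1 library left out, 175 under DESeq2, 129 in low cycling cells and 80 in deep cells. Partners numbered 7 by library size, 6 under DESeq2, 5 with replicates 1 and 2 alone, 9 with 3 and 4 alone, and 2 to 5 with 1 library left out. Shh genes numbered 2 under DESeq2, 2 with replicates 1 and 2 alone, 5 with 3 and 4 alone, and 0 to 1 with 1 left out. With 1 library left out, inhibitors numbered 4 to 8, other fate factors 3 to 7 and neighbours 12 to 41; neighbours were 82 with replicates 3 and 4 alone. The causes were not tested.

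The summed level of the 7 factors in GL261 was 335 CPM by library size and 331 over all barcodes, against 359. The factors seen per cell were 1.28, 2.65 and 3.34 in GL261-GSCs and 0.268, 0.724 and 1.06 in GL261 at 1000 UMIs, 4000 UMIs and without thinning, so these depend on depth. Pairs above 1 in all 4 libraries numbered 7 in deep cells.

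Signs turned in values not called in either setting. For Sox10 in G2/M the log2 change was -0.030 with thinned cells and -0.0090 to 0.043 with 1 library left out. For Zfp488 in S it was 0.011 both without the filter and with the top 10%, and -0.11 to 0.053 with 1 left out, and for Olig2 in S -0.092 to 0.013. In the split, Nkx2-2 was at 0.16 and Myrf at 0.24 at 4000 UMIs, and Sox8 at 0.0022 without the filter; with 1 left out Nkx2-2 was at -0.21 to 0.035 and Sox8 at -0.12 to 0.060.

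Replicate numbers did not pair GL261 with GL261-GSCs libraries (correlations of deviations -0.03 and 0.04); a fit with the replicate number as a block called 6512 genes. Identity between the proteins was not computed. Low cell depth in replicate 4 and 2 libraries of GL261 limit what can be seen for Sox8, Zfp488 and rare GL261 cells.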
